A study of Mus musculus with 10 samples.

Results

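The miR-30 family was measured with 7 probes of the array, mmu-miR-30a, mmu-miR-30a*, mmu-miR-30b, mmu-miR-30c, mmu-miR-30d, mmu-miR-30e and mmu-miR-30e*, out of 1040 probes for mouse miRNAs. The members were taken by probe name, written without the mouse prefix mmu- from here on, and each name stood for 1 probe spotted 2 times. An asterisk in this older nomenclature marks the strand of a hairpin that was then taken as the minor one. The cells were mIMCD-3, an established line derived from the mouse inner medullary collecting duct, grown on transwell filters and kept in hormone-free medium before treatment. Total RNA was compared between 5 samples treated with 100 nM aldosterone and 5 treated with the ethanol vehicle, and each sample had its own single-colour array. How long the treatment lasted is not given in the sources used here. The labels do not state separate cultures for the samples, so p-values measure the spread between these samples only, which may be technical.

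miRNAs are short RNAs cut from a hairpin, and they repress messenger RNAs that pair with their seed, the bases near the 5′ end. The main strands of the miR-30 family share a seed and come from hairpins that lie in clusters. The family is abundant in kidney epithelium, and its known targets include Snai1, a transcription factor of epithelial-mesenchymal transition, and the connective tissue growth factor Ctgf. Aldosterone is the steroid hormone that acts through the mineralocorticoid receptor and raises sodium reabsorption in the distal nephron and collecting duct. The series examined the effect of this hormone on the miRNAs of the cell line.

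Mature sequences were taken from RefSeq on the mouse build GRCm38.p6, where 5 of the 7 members had an entry. They are shown because miR-30a and miR-30e, which differ by 1 base, gave much the same pattern over the arrays, as described below. miR-30a* and miR-30e*, which also differ by 1 base, were less alike. Capitals mark the seed, bases 2 to 8 from the 5′ end.
miR-30a: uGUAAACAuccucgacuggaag
miR-30e: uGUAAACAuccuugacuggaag
miR-30c: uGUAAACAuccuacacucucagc
miR-30a*: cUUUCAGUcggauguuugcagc
miR-30e*: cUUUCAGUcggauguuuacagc

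The main strands miR-30a, miR-30c and miR-30e share the seed GUAAACA, and miR-30a* and miR-30e* share the seed UUUCAGU. Counting from 1 at the 5′ end, miR-30a and miR-30e differ only by C13U, so 95.5% of their 22 positions agree. miR-30a* and miR-30e* likewise differ only by G18A. miR-30c differs from miR-30a at 5 of 22 positions and from miR-30e at 5 of 22, all of them outside the seed. Of 1679 mature sequences in the table, 4 carried the seed GUAAACA, and the member of these from outside the family was miR-384-5p. The seed UUUCAGU was carried by 2, the minor strands miR-30a* and miR-30e*.

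The hairpins of miR-30a and miR-30e are shown because both of their arms were measured. Capitals mark the 2 mature arms, the miR-30a or miR-30e strand first and its asterisk strand second.
Mir30a: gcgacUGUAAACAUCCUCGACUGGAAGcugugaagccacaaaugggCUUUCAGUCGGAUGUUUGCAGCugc
Mir30e: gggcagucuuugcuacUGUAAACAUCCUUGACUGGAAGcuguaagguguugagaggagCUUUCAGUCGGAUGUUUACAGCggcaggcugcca

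The Mir30a hairpin lies at chr1:23272269-23272339 on the plus strand of GRCm38.p6, 19361 bases from the Mir30c-2 hairpin and outside any gene of the RefSeq table. The Mir30e hairpin lies at chr4:120772606-120772697 on the minus strand, 2983 bases from the Mir30c-1 hairpin. It overlaps the annotated Mir30f hairpin on the other strand, for which the array held no probe. Both Mir30c-1 and Mir30e lie within the span of Nfyc, the gene for a subunit of the transcription factor NF-Y. The miR-30c probe cannot tell its hairpins apart, since Mir30c-1 and Mir30c-2 give the same main strand.

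All 7 probes were detected on all 10 arrays, where 23.5% of the 1040 mouse probes were. A probe was called detected on an array where its spots passed the authors' threshold, which they describe as the mean of the blank spots plus 2 SD. Raw intensities of the members were 1.69 to 93.4 times the blank level of their array, and their duplicate spots had a median CV of 7.34%. Precision is limited by the number of arrays. The labelled cell type was checked against marker miRNAs. Among epithelial markers miR-200a, miR-200b and miR-429 were detected on all 10 arrays, with miR-200c on 2 and miR-141 on 1. Kidney markers were detected on all arrays for 4 of 5 probes. Of the markers of blood cells, muscle, endothelium and fibroblasts, and neurons, 0 of 14 probes on the array were detected on all 10, although miR-126-3p, an endothelial miRNA, was detected on 9 and miR-9, a neuronal one, on 8. Their part in the values of the family was not tested. Between 275 and 583 mouse probes were detected per array, the most on aldosterone replicate 3 and the fewest on vehicle replicate 2.

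The comparison of aldosterone with vehicle addressed whether the hormone altered the level of the family. With the pairing of samples left aside, no member differed beyond the spread between arrays. With same-numbered samples paired, as given below, the intervals of miR-30a and miR-30d lay above 0 only before adjustment for the 430 tested probes. Of the 7 probes, 6 had a higher and 1 a lower mean log2 value with aldosterone, and none passed the test. Over all 430 tested probes 53% were higher. miR-30a and miR-30d were higher in all 5 same-numbered pairs of samples. They also had the largest log2 changes of the family on the log2(intensity + 50) scale used here, although in the authors' values, without an offset, miR-30b came before miR-30d. Values below are normalized intensities above background in arbitrary units, listed for replicates 1 to 5. No probe's level is compared with another's, because hybridization efficiency differs between probes.

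miR-30a, a main strand encoded on chromosome 1, had 262, 573, 604, 424 and 322 with aldosterone, against 188, 365, 573, 291 and 273 with vehicle. Replicate 3 was highest and replicate 1 lowest in either group, and the groups overlapped widely. Its mean was 437 ± 150.1 with aldosterone and 338 ± 146 with vehicle (SD, n = 5 each). The log2 change was 0.35 (SE 0.29, 95% interval -0.30 to 0.998), with a limma adjusted p of 0.944. Within pairs the ratio of aldosterone over vehicle ran between 1.06 in replicate 3 and 1.57 in replicate 2.

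miR-30d, encoded beside miR-30b, had 167, 350.2, 365, 237 and 262 with aldosterone, against 155, 227, 333, 202 and 202 with vehicle. The same arrays were high and low as for miR-30a, and the groups overlapped. Its mean was 276 ± 82.4 with aldosterone and 224 ± 66.4 with vehicle (SD, n = 5 each), a log2 change of 0.24 (SE 0.21, 95% interval -0.23 to 0.72, limma adjusted p = 0.944). Within pairs the ratio ran between 1.07 in replicate 1 and 1.55 in replicate 2.

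miR-30b had 82.2, 88.5, 99.3, 88.5 and 112 with aldosterone, against 76.3, 57.6, 109, 62.7 and 84.8 with vehicle. It was higher with aldosterone in 4 of 5 pairs and lower in replicate 3. In vehicle replicates 2 and 4, its lowest values, the duplicate spots had CVs of 42.4% and 44.4%. The log2 change was 0.18 (SE 0.11, 95% interval -0.06 to 0.42, limma adjusted p = 0.944). This is the narrowest interval among the main strands, and it includes 0.

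miR-30e, encoded on chromosome 4, had 39.6, 71.0, 76.3, 52.4 and 42.5 with aldosterone, against 31.5, 37.6, 82.2, 44.3 and 44.3 with vehicle. It was higher in 3 of 5 pairs, most of all in replicate 2, where the ratio was 1.89. The log2 change was 0.13 (SE 0.15, limma adjusted p = 0.944).

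miR-30c, which comes from hairpins on chromosomes 1 and 4, was the member with a lower mean with aldosterone. It had 365, 482, 482, 499.7 and 499.7 with aldosterone, against 365, 604, 604, 455 and 455 with vehicle. It was higher in 2 pairs, lower in 2 and tied in 1, and the log2 change was -0.07 (SE 0.14, limma adjusted p = 0.953). The repeated values are steps, since quantile normalization gives probes of the same rank the same value on every array.

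The minor strands had the smallest log2 changes on this scale, but not in the authors' values or under cyclic loess. miR-30a* had 47.9, 74.3, 59.2, 68.3 and 84.8 with aldosterone, against 53.8, 52.4, 80.9, 64.6 and 64.6 with vehicle. miR-30e* had 49.3, 50.7, 60.2, 49.3 and 71.0 with aldosterone, against 47.1, 45.1, 64.6, 53.4 and 57.6 with vehicle. Either probe was higher in 3 of 5 pairs. The log2 changes were 0.04 for miR-30a* (SE 0.10) and 0.03 for miR-30e* (SE 0.07), with a limma adjusted p of 0.953 for either.

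**Figure D1:**
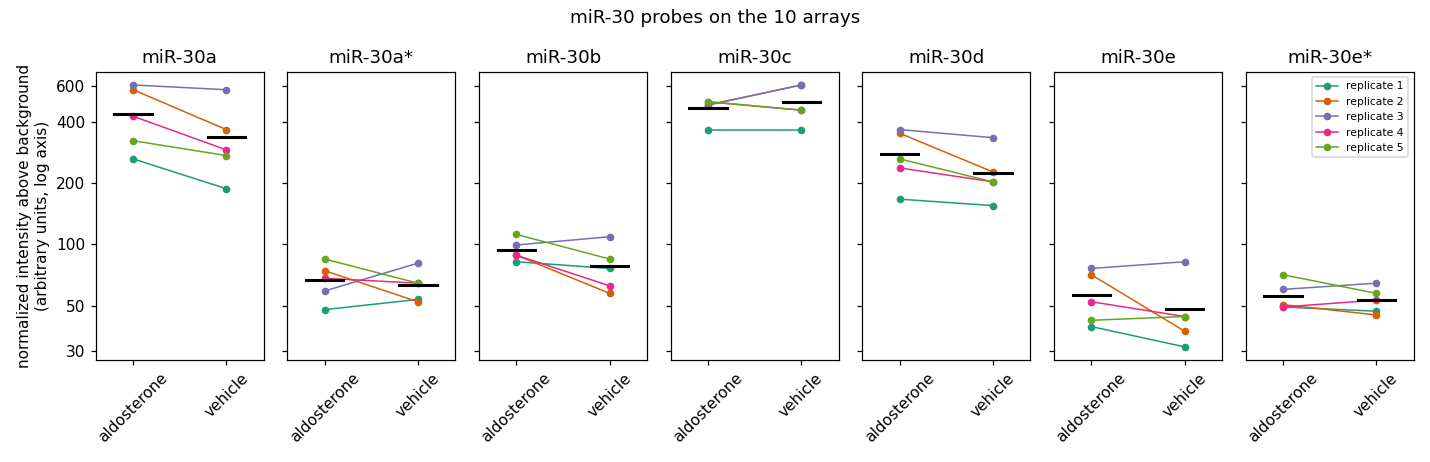
Normalized intensity above background (arbitrary units, log axis) of the 7 miR-30 probes, with aldosterone left and vehicle right in each panel. Points are arrays, coloured lines join same-numbered samples and black bars are group means. All 5 lines of miR-30a and miR-30d run higher on the aldosterone side, and the groups overlap in every panel.

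Over all 430 tested probes, 0 (0%) passed an adjusted p under 0.05 in limma, 8 (1.86%) had an unadjusted p under 0.05, and 0 of these 8 were miR-30 probes. The median log2 change was 0.13 over the 7 members and 0.00 over all tested probes. Log2 changes are on the log2(intensity + 50) scale, which understates the change of dim probes.

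Same-numbered samples of the groups share a code in the labels. They deviated together to an uneven degree, with r between 0.20 in replicate 5 and 0.81 in replicate 3. Aldosterone replicate 5 was more like another vehicle sample than its own. Blocking on the replicate number in limma narrowed the intervals of 6 of the 7 members, all but miR-30a*. With the block the log2 change of miR-30a had an SE of 0.08 and a 95% interval of 0.14 to 0.55, and that of miR-30d an SE of 0.07 and an interval of 0.06 to 0.42. Their unadjusted p-values in that limma fit were 0.00638 and 0.0168, places 2 and 6 among the 430 probes. Both had an adjusted p of 0.744 and so did not pass, and 0 of 430 probes passed. At an unadjusted p under 0.05 were 19 probes (4.42% of the tested), of which these 2 were members. Of the 19, 11 were higher with aldosterone (2.56% of the tested), as both members were. Of all tested probes 3.72% were higher in all 5 pairs and 2.33% were lower in all 5. The members higher in all 5 were miR-30a and miR-30d.

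**Figure D2:**
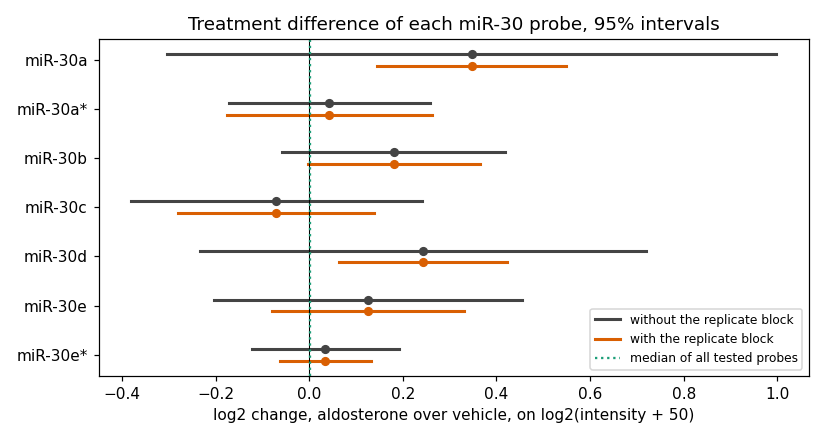
Log2 change, aldosterone over vehicle, of each miR-30 probe on the log2(intensity + 50) scale, with 95% intervals from limma without and with the replicate number as a block. All 7 intervals without the block include 0. With it, those of miR-30a (0.14 to 0.55) and miR-30d (0.06 to 0.42) lie above 0, before any adjustment for 430 probes.

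The size of these differences depended on how arrays were scaled. Before any normalization the blank-subtracted intensity of miR-30a was 283, 412, 1695, 379 and 354 with aldosterone, against 211, 144, 1095, 157 and 193 with vehicle. The ratio within pairs then ran between 1.34 and 2.86. Without normalization all 7 members had a positive log2 change, as did 96% of the tested probes. In the authors' normalized values, which carry no offset, the log2 change was 0.84 for miR-30a, 0.78 for miR-30b, 0.74 for miR-30d and 0.73 for miR-30e. It was 0.56 for miR-30e*, 0.50 for miR-30a* and 0.41 for miR-30c. The median of the 616 probes tested there was 0.22, so miR-30a lay 0.62 above it and miR-30c, the lowest member, 0.19. Under cyclic loess normalization miR-30a was at 0.26 and miR-30d at 0.21, while miR-30c, miR-30a* and miR-30e* were below 0.

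**Figure D3:**
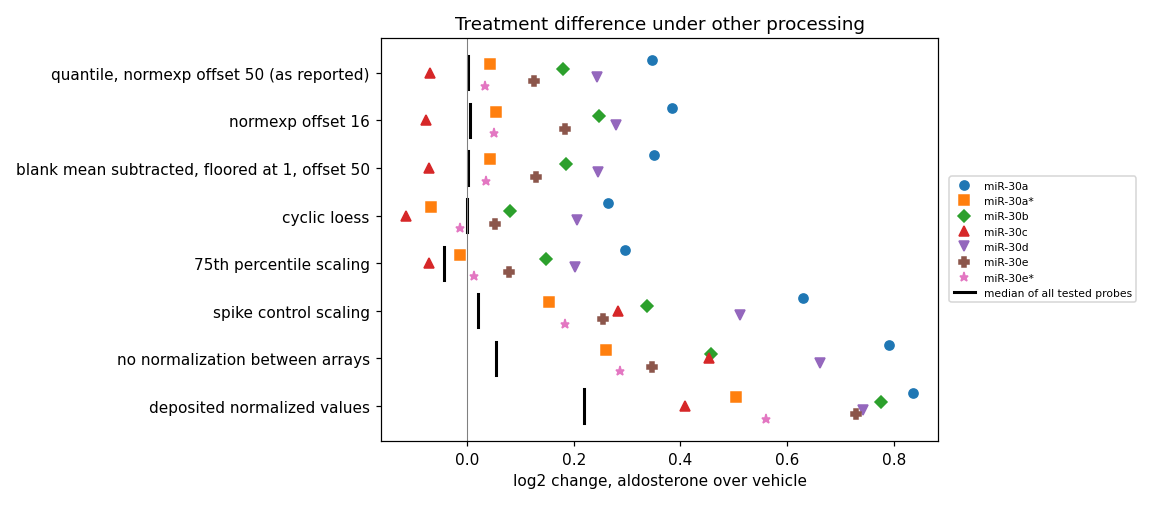
Log2 change, aldosterone over vehicle, of the 7 miR-30 probes under 8 ways of processing, with the median of all tested probes as a black bar. miR-30a, miR-30d, miR-30b and miR-30e lie above 0 in all 8. miR-30c, miR-30a* and miR-30e* change side, and the deposited values, which have no offset, are on a wider scale.

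The arms of 1 hairpin were compared as a ratio of intensity + 50 within each array. Because of the offset, differences in scale between arrays do not cancel fully in this ratio. The log2 ratio of miR-30a over miR-30a* was 1.67, 2.32, 2.58, 2.004 and 1.46 with aldosterone, against 1.19, 2.02, 2.25, 1.57 and 1.49 with vehicle. It averaged 2.01 ± 0.46 with aldosterone and 1.71 ± 0.42 with vehicle (SD, n = 5 each), a difference of 0.30 (SE 0.28). The ratio was higher with aldosterone in 4 of 5 pairs, and the difference lay within the spread between arrays (p = 0.31 by an exact permutation test, adjusted over the 2 ratios 0.532, two-sided). The difference was 0.53 without normalization and 0.16 without aldosterone replicate 3.

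For miR-30e over miR-30e* the log2 ratio was -0.15, 0.27, 0.20, 0.04 and -0.39 with aldosterone, against -0.25, -0.12, 0.21, -0.13 and -0.19 with vehicle. It averaged -0.01 ± 0.27 with aldosterone and -0.10 ± 0.18 with vehicle (SD, n = 5 each), a difference of 0.09 (SE 0.14, exact permutation p = 0.532, adjusted 0.532, two-sided). Without aldosterone replicate 2 that difference was 0.023. With 5 and 5 arrays the smallest p this test allows is 0.00794. Within pairs the exact sign-flip test gave 0.125 for the miR-30a ratio and 0.5 for the miR-30e ratio, where the smallest possible is 0.0625.

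The spread of the members was divided between replicate number, with 4 degrees of freedom, and treatment, with 1, so the shares below are not directly comparable with each other. The labels do not say what the code shared by same-numbered samples stands for. For miR-30a the replicate number took up 82.5% of the sum of squares, the treatment 13.6% and the rest 3.89%, and for miR-30d these shares were 81.5%, 12.7% and 5.75%. For miR-30b the replicate number took up 54.6% and the treatment 24.3%, and for miR-30a* 49.9% and 2.19%. The median share of the replicate number over all tested probes was 59.9%, with 6.12% for the treatment.

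Averaged over both arrays of a number, miR-30a had 225 in replicate 1, 469 in replicate 2, 588 in replicate 3, 358 in replicate 4 and 297 in replicate 5. The lowest replicate was number 1 and the highest number 3 for miR-30a, miR-30d and miR-30e. miR-30d had 161 in replicate 1 and 349 in replicate 3, and miR-30e had 35.5 in replicate 1 and 79.2 in replicate 3. miR-30c was also lowest in replicate 1, and highest in replicates 2 and 3, which were tied. The other members shared the order in part. miR-30a* was lowest in replicate 1 and highest in replicate 5, and miR-30b was lowest in replicate 2 and highest in replicate 3. miR-30e* was highest in replicate 5, with replicates 1 and 2 nearly level at 48.2 and 47.9.

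By a limma F test of the replicate number, 10 of 430 probes (2.33%) passed an adjusted p under 0.05, among them miR-30a alone of the family (adjusted p = 0.0378). miR-30d had an adjusted p of 0.0611 in the same limma test, and the other 5 had 0.221 to 0.562. The call of miR-30a was lost without replicate 1 (limma adjusted p = 0.144), replicate 3 (0.141), replicate 4 (0.117) or replicate 5 (0.106), and when all 1040 mouse probes were tested (0.0508). Without normalization all 7 members passed (limma adjusted p of 0.00633 to 0.0105), among 222 of 430 probes. Under cyclic loess miR-30a, miR-30d and miR-30e passed (limma adjusted p of 0.028, 0.00644 and 0.0282), among 49 of 430. Without replicate 2 miR-30a, miR-30d and miR-30e passed as well (limma adjusted p of 0.0272, 0.0174 and 0.0305), among 28 of 430. Aldosterone replicate 3 and vehicle replicate 3, where these 3 probes were high, were also the arrays with the most detected probes of their group, 583 and 495. The part of array brightness in the pattern was not tested.

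**Figure D4:**
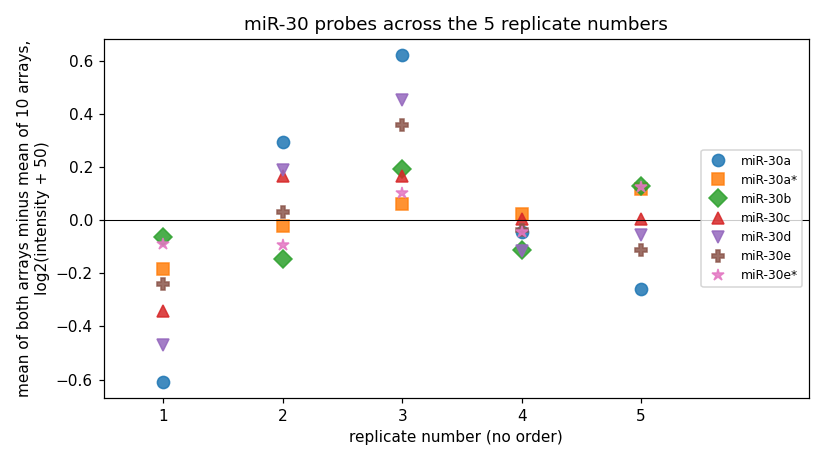
Mean log2(intensity + 50) of the aldosterone and vehicle arrays of each replicate number, minus the mean over all 10 arrays, for the 7 miR-30 probes. miR-30a, miR-30d and miR-30e are lowest in replicate 1 and highest in replicate 3, while miR-30b is lowest in replicate 2 and both asterisk strands are highest in replicate 5.

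Likeness between probes was described by Pearson's r of the normalized log2 values over the 10 arrays, which share RNA samples, array processing and, within pairs, the replicate code. For miR-30a the most similar of all other tested probes was miR-30d (r = 0.95, Spearman's rho 0.96) and the next was miR-30e (r = 0.93, rho 0.82). For miR-30d they were miR-30a and then miR-30e (r = 0.91, rho 0.79), and for miR-30e the closest probe was again miR-30a. These are the members of which miR-30a and miR-30e differ by C13U alone. miR-30c, with the same seed and 5 differing positions, had r = 0.66 with miR-30a and 0.49 with miR-30e.

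miR-30a* and miR-30e*, which differ by G18A and come from different chromosomes, had r = 0.74, place 3 in the order of miR-30a* and place 10 in that of miR-30e*. The arms of 1 hairpin were less alike, with r = 0.46 for miR-30a and miR-30a* (places 46 and 40) and 0.43 for miR-30e and miR-30e* (places 76 and 84). miR-30b was closest within the family to miR-30e* (r = 0.79) and least like miR-30c (r = 0.14). The neighbouring hairpins miR-30b and miR-30d gave r = 0.56.

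With near-identical sequences, a probe may also bind the other member. The files give no measure of such binding, and it was not tested, so the values of miR-30a and miR-30e, and of miR-30a* and miR-30e*, may not be independent. miR-30b and miR-30d had no sequence entry to compare. The same limit may therefore hold for miR-30d, the probe most like miR-30a, and could not be checked here. The likeness among miR-30a, miR-30d and miR-30e was 0.84 to 0.97 under cyclic loess and 0.85 to 0.92 without replicate 3. With group and replicate means taken off it ranged between 0.52 and 0.89, at places 10 to 128. miR-30a and miR-30d then had r = 0.52, below the 0.58 of miR-30a and miR-30a*, so the order given above did not hold within replicate numbers.

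**Figure D5:**
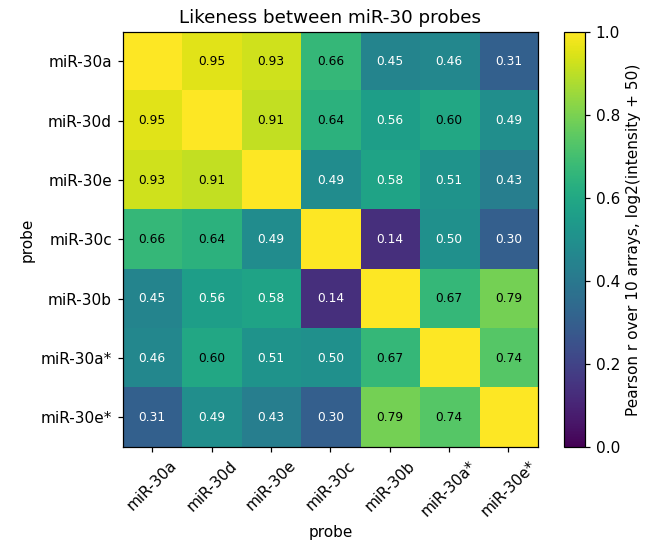
Pearson's r between miR-30 probes over the 10 arrays, from normalized log2(intensity + 50). The block of miR-30a, miR-30d and miR-30e holds r of 0.91 to 0.95, and the pair of asterisk strands 0.74, while each arm and its own partner are at 0.46 and 0.43.

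Outside the family, the probe with the highest r to miR-30a was that of miR-200a, which represses Zeb1 and Zeb2 to maintain the epithelial state (r = 0.85). It was followed closely by miR-872* (r = 0.85) and then by miR-188-5p (r = 0.79). By Spearman's rho miR-872* came before miR-200a, with 0.86 against 0.75. miR-200a was also among the 3 closest of miR-30d (r = 0.86) and miR-30e (r = 0.91), beside miR-128 (r = 0.87) and miR-872* (r = 0.84) for miR-30d, and miR-29c (r = 0.91) and miR-503 (r = 0.89) for miR-30e. For miR-30e rho was 0.90 with miR-503 and 0.78 with miR-200a. Likeness to probes outside the family was not tested with replicate means taken off. The summed intensity of the 5 epithelial markers was 188 to 384 with aldosterone and 137 to 370 with vehicle (lowest to highest array).

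miR-30b was closest to miR-1936 (r = 0.91), miR-421 (r = 0.90) and miR-374 (r = 0.87), and miR-30c to miR-193b (r = 0.86), miR-324-5p (r = 0.82) and miR-320* (r = 0.81). For miR-30a* they were miR-103-2* (r = 0.83), miR-128 (r = 0.74) and miR-130a (r = 0.73). For miR-30e* they were miR-421 (r = 0.90), miR-10b (r = 0.84) and miR-130a (r = 0.84). miR-200a stood in the lists of 3 members, and miR-128, miR-872*, miR-421 and miR-130a in those of 2 each.

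Among the relatives of the 7, the array held 6 probes, for miR-30b*, miR-30c-1*, miR-30c-2*, miR-30d*, miR-384-5p and miR-384-3p. miR-30c-2*, the minor strand of the hairpin beside Mir30a, was detected on 5 arrays and was the 1 relative tested. It was at 5.20 ± 0.95 with aldosterone, detected on 3 arrays, and 6.02 ± 1.31 with vehicle, detected on 2 (SD, n = 5 each). Its raw intensity was close to the blank level, at most 1.38 times it with aldosterone and 1.28 times with vehicle. After normalization it was lower with aldosterone in 5 of 5 pairs. The blank-subtracted intensity before normalization was higher with aldosterone in replicates 2, 3 and 4, so this direction depended on the scaling. The log2 change of miR-30c-2* was -0.02 and did not pass (SE 0.02, limma adjusted p = 0.944). miR-30c-1*, the minor strand of the hairpin beside Mir30e, was detected on 4 arrays with aldosterone and 0 with vehicle, and was not tested. Of all mouse probes, 380 to 583 were detected per array with aldosterone and 275 to 495 with vehicle. The raw intensity of miR-30c-1* was close to the blank level, at most 1.19 times it with aldosterone and 1.09 times with vehicle. Its level was 5.02 ± 1.44 with aldosterone and 3.91 ± 0.73 with vehicle (SD, n = 5 each), and the groups overlapped. miR-384-5p, which shares the seed GUAAACA with the main strands, is shown for comparison, with the seed in capitals.
miR-384-5p: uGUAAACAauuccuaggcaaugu

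It differed from miR-30a at 10 of 22 positions and was detected on 0 of 10 arrays.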

How the data were processed

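Total RNA of 10 samples was labelled with Hy5 and hybridised to single-colour miRNA arrays. The deposited spot intensities are raw, per the file headers. In a deposited note the authors describe a background taken from blank spots, a positive call above the blank mean plus 2 SD, and a median scaled to 25 in their normalized intensity. Raw intensities were background-corrected with normexp (offset 50), set to log2, averaged over duplicate spots and quantile-normalized over the mouse and viral probes. Tested were 430 of 1040 mouse probes, those with all unflagged spots positive on at least 5 arrays. limma 3.58.1 (R 4.3.3) compared 5 aldosterone with 5 vehicle arrays, with Benjamini-Hochberg adjustment over all 430. Intensities printed are normalized values minus the offset.

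The replicate numbers stand for title codes shared between the groups. Same-numbered samples correlated in their deviations with r of 0.20 to 0.81, and the numbers were taken to pair the samples. Scripts were tested on simulated data. The text names all 7 members, their relatives, marker miRNAs, and for each member the 3 most similar tested probes from outside the family. The members and lists were chosen with earlier results of these data known. Among kidney markers miR-10a alone ran between 245 and 379 with aldosterone and between 237 and 408 with vehicle. The lowest and highest summed marker intensities were 343 and 511 with aldosterone and 331 and 543 with vehicle for kidney. They were 13.7 and 19.2 with aldosterone and 14.6 and 25.1 with vehicle for blood cells, and 8.47 and 10.6 with aldosterone and 6.78 and 10.8 with vehicle for muscle. For endothelium and fibroblasts they were 17.4 and 22.0 with aldosterone and 13.7 and 22.3 with vehicle, and for neurons 6.30 and 9.68 with aldosterone and 7.23 and 8.19 with vehicle. Alternatives were other background, scaling and filter settings, the authors' values, the replicate block, and leaving out samples.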

Additional observations from a re-analysis of the deposited data

Results flagged for a closer look

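Dixon's test was run on 18 sets of 5 values, 1 for each member or arm ratio in each group. In 2 of them a sample passed its critical value of 0.71, where chance picks out about 1 in 20. For miR-30c, aldosterone replicate 1 had a log2(intensity + 50) of 8.70, and the nearest of the other aldosterone samples was at 9.05 (Q = 0.882). Those other samples hold repeated values, the steps of quantile normalization, which narrows their spread. The log2 ratio of miR-30e over miR-30e* was 0.21 in vehicle replicate 3, and the nearest of the other vehicle samples was at -0.12. Its Q of 0.71 only just reached the critical value.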

How the results depend on the processing

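In all 33 settings, 8 of them chosen after seeing the data, 0 of the tested probes passed for aldosterone against vehicle. The smallest limma adjusted p was 0.0755, with the replicate block and without normalization. In that setting 96% of the 430 probes were higher with aldosterone, and 160 had an unadjusted limma p under 0.05. All 7 members were among these 160, with a limma adjusted p of 0.0755 to 0.129. The log2 changes of miR-30a, miR-30b, miR-30d and miR-30e and both arm ratios kept their direction in all 33. Settings that only add the replicate block or change which probes are tested repeat the values of another setting. They are therefore not separate checks of direction. The change of miR-30a ran between 0.19 and 0.84, and that of miR-30d between 0.15 and 0.74. miR-30c turned to 0.45 without normalization, with or without the replicate block, to 0.28 with spike control scaling and to 0.41 in the authors' values. It was 0.001 without aldosterone replicate 1 and 0.0023 without vehicle replicate 2. miR-30a* turned to -0.068 under cyclic loess and -0.013 under 75th percentile scaling. It was -0.019 without replicate 2, -0.0029 without replicate 5 and -0.0077 without aldosterone replicate 5. miR-30e* turned to -0.014 under cyclic loess and -0.013 without aldosterone replicate 5. The block, where also run, gave the same values. Leaving out samples gave 0.19 to 0.54 for miR-30a, the lowest without vehicle replicate 1 and the highest without vehicle replicate 3. It gave 0.15 to 0.39 for miR-30d, 0.13 to 0.24 for miR-30b and 0.043 (without replicate 2) to 0.22 (without vehicle replicate 3) for miR-30e. The arm ratio difference for miR-30a was lowest at 0.16, without aldosterone replicate 3, and highest at 0.45, when vehicle replicate 3 was dropped, and was 0.53 without normalization and 0.48 with spike control scaling. For miR-30e it ran between 0.020 (without replicate 2) and 0.18 (without aldosterone replicate 5). Leaving out samples gave -0.019 to 0.11 for miR-30a*, -0.17 to 0.0023 for miR-30c and -0.013 to 0.068 for miR-30e*. The cause of these turns was not tested.

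The replicate block left every log2 change as it was and called 0 probes, with a smallest limma adjusted p of 0.744. Probes that differed between replicate numbers counted 10 as reported, 222 without normalization, 49 under cyclic loess and 2 to 28 with a pair left out, the fewest without replicate 4 and the most without replicate 2. Precision is limited by 5 arrays a group.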
